A study of Homo sapiens with 8 samples.

Results

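The germline genes described here are 10 genes that germ cells use and that somatic cells keep silent: *DAZL*, *DDX4*, *MAEL*, *SYCP1*, *SYCP3*, *TDRD1*, *TDRD9*, *PIWIL1*, *BRDT* and *STK31*. They were listed by name, with earlier results of these data known, out of the 64449 genes that GENCODE annotates on chromosomes 1 to 22, X and Y of GRCh37. Of these genes, 20163 are protein-coding. All 10 were found in the annotation. The readout is MBD-seq of 8 neuroblastoma (NB) cell lines, established cultures of a childhood tumor of the sympathetic nervous system. In this assay sheared genomic DNA is captured with the methyl-CpG-binding domain of MBD2, so that fragments with methylated CpG sites pile up into peaks. IMR-32, N206, LAN-2 and CHP-902R are labelled as having an amplified *MYCN* oncogene (MNA). SH-SY5Y, SK-N-AS, SJNB-1 and CLB-GA are labelled as not amplified (*MYCN* single copy). The labels name no drug treatment of the lines, and there is 1 sample of each, so that replicates of a group are its lines. The paper's results text leaves CHP-902R out of the MNA lines, but its supplement lists this line as *MYCN* amplified, like the label. The covered lengths are also given without CHP-902R where their direction turns.

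Most tissues leave CpG-rich promoters unmethylated whether or not the gene is transcribed. A small set of germ cell genes differs: their promoters, although rich in CpG, acquire DNA methylation when the early embryo forms its somatic tissues, and the methylation takes part in keeping them silent. Germ cells erase these marks before the genes are switched on for piRNA production, in which small RNAs guide PIWI proteins against transposons, and for meiosis. The peak lists report captured DNA only. Transcription of the genes was not measured here, so their silence in these lines is background and not a result.

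For each gene, peaks were sought in a promoter window around every annotated transcription start site (TSS), which began 1500 bp upstream and ended 1000 bp downstream, and an overlap of 1 bp counted. The canonical TSS is the start of the transcript that Ensembl takes as representative. The lists held between 70816 peaks (SJNB-1) and 112412 peaks (LAN-2). Every MNA list, from 88496 peaks (IMR-32) upward, was longer than every single copy list, of which the longest held 86079 peaks (SK-N-AS). The lists give a position and the authors' score for each peak and no read counts. The paper states that the number of reads differed between the lines, but gives only its range. The depth behind each single list is therefore unknown, and the absence of a peak means only that none was called at that depth. Ranks of scores were therefore taken within a list. Raw scores are also printed by line, and an alternative setting applied the same lowest score to every list. With depth unknown, equal raw scores in different lists need not mean equal capture.

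The DNA around the start of the genes differs in how many CpG sites the MBD protein could bind when methylated. To show this, the 200 bp just upstream of the canonical TSS are printed for 3 genes with a peak over the TSS in most lines (*STK31*, *SYCP3* and *DAZL*) and for 2 genes with such a peak in 2 lines (*PIWIL1* and *SYCP1*). They are read from GRCh37 in the direction of transcription, with each CpG in capitals. *STK31* lies at chr7:23749638-23749837 on the plus strand, *SYCP3* at chr12:102133241-102133440 on the minus strand and *DAZL* at chr3:16646931-16647130 on the minus strand. *PIWIL1* lies at chr12:130822232-130822431 and *SYCP1* at chr1:115397284-115397483, both on the plus strand.
STK31: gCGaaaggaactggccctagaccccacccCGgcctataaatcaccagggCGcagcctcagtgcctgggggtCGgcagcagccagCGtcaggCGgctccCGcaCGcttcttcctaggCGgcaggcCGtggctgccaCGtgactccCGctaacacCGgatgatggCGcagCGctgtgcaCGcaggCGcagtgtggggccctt
SYCP3: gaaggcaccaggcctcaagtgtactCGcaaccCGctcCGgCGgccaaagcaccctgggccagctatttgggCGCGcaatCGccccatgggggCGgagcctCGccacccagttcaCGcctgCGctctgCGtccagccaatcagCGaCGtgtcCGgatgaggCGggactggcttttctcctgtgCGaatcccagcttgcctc
DAZL: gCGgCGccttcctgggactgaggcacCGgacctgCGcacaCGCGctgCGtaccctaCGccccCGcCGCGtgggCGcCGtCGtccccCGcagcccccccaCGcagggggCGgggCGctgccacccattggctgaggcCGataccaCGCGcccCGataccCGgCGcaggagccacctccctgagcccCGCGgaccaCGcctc
PIWIL1: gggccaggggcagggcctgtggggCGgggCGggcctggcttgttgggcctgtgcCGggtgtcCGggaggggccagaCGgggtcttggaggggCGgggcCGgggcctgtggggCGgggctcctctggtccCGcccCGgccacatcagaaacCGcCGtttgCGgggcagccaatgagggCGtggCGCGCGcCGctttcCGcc
SYCP1: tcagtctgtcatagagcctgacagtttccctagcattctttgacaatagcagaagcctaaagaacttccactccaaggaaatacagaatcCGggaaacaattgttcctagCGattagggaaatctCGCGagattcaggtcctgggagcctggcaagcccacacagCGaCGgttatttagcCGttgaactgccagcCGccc
The stretch of *SYCP1* holds 8 CpG sites, those of *STK31* and *SYCP3* hold 17 each, that of *PIWIL1* holds 19 and that of *DAZL* holds 27. A peak spanned the whole stretch in 8 lines for *STK31*, in 6 lines for *SYCP3* and in 4 lines for *DAZL*. It did so in 1 line each for *PIWIL1* and *SYCP1*. The stretch with the fewest CpG sites and one with more than *STK31* were thus both rarely covered.

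Promoter peaks were found at the germline genes in every NB line. IMR-32 had one at all 10 genes, SH-SY5Y at 9, LAN-2, CLB-GA and SK-N-AS at 8, and CHP-902R, N206 and SJNB-1 at 7. Over the 80 pairs of a gene and a line, 64 (80%) had a promoter peak, whereas 36.9% of such pairs over all protein-coding genes did. The count over any TSS rises with the number of TSS a gene has, so the canonical window was also used alone. There the germline genes kept 64 of 80 pairs (80%), and the protein-coding genes fell to 16.3%. In 52 pairs (65%) a peak lay over the canonical TSS itself, against 3.38% of the protein-coding pairs. With scores of 100 or more only, 40% of the germline pairs and 9.14% of the protein-coding pairs had a promoter peak.

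**Figure D1:**
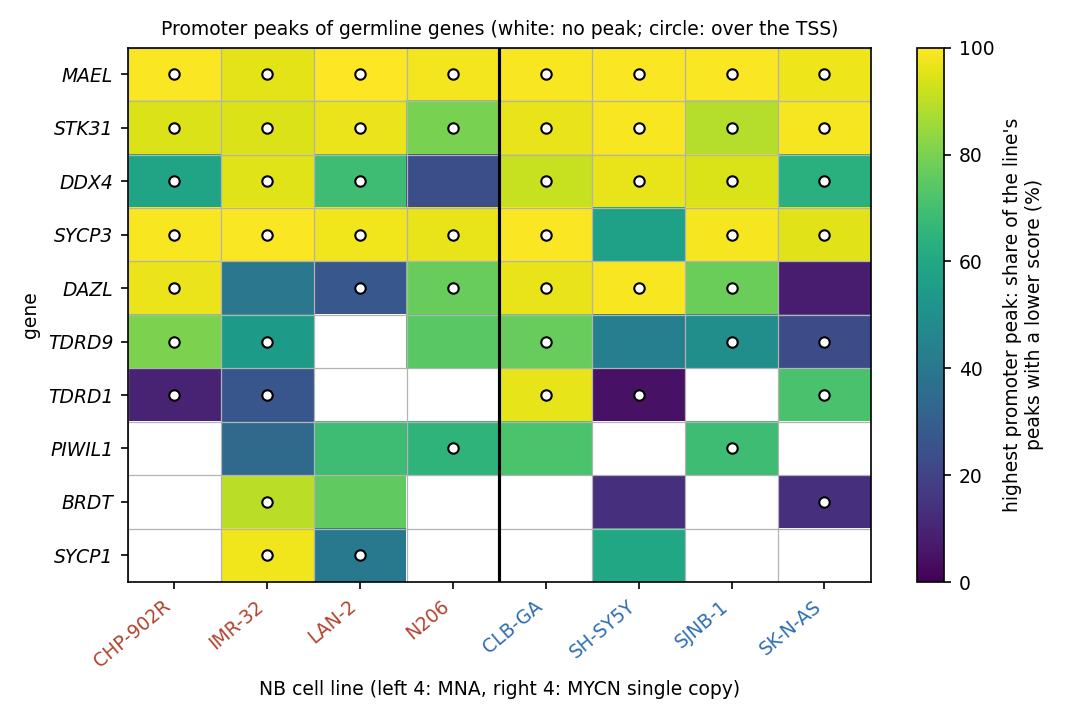
Promoter peaks of the 10 germline genes (rows) in the 8 NB lines (columns). The colour is the share of the line's peaks with a lower score than the gene's highest promoter peak (%), white marks no peak, and a circle marks a peak over the canonical TSS. *MAEL* and *STK31* have a circle in all 8 lines, and the 16 white cells lie in the rows of *TDRD9*, *TDRD1*, *PIWIL1*, *BRDT* and *SYCP1*.

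A promoter peak in all 8 lines was found at *DAZL*, *DDX4*, *MAEL*, *SYCP3* and *STK31*, as at 6.12% of the protein-coding genes. *TDRD9* had one in 7 lines, *TDRD1* and *PIWIL1* in 5, *BRDT* in 4 and *SYCP1* in 3. When each list was held to its top 70816 peaks by score, the length of the shortest list, *DAZL* had a promoter peak in 6 lines, *TDRD1* in 3 and *BRDT* in 2, the other 7 genes kept their number, and 72.5% of the pairs had one (31.7% of the protein-coding pairs). Within 500 bp of a TSS, *DAZL* and *DDX4* had a peak in 7 lines each, *PIWIL1* in 4 and *BRDT* in 3. With the full lists and windows, each of the 10 genes reached 3 lines or more, as did 49.7% of the protein-coding genes, and 73.9% of these had a peak in 1 line or more. In the canonical window, a peak in all 8 lines was found for the same 5 germline genes and for 0.957% of the protein-coding genes (0.995% of those with high and 1.66% of those with intermediate CpG content). Over the TSS itself, *MAEL* and *STK31* had a peak in all 8 lines, against 0.159% of the protein-coding genes. *DDX4* and *SYCP3* followed with 7 lines, *DAZL* with 6, *TDRD1* and *TDRD9* with 5, and *PIWIL1*, *BRDT* and *SYCP1* with 2 each. With 1 sample a line, neighbours in this order that are 1 line apart differ by a single peak call.

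Other CpG-rich promoters had peaks in fewer lines. All 10 genes have a CpG-rich start by the ratio of observed to expected CpG within 500 bp of the canonical TSS, which ran from 0.612 in *BRDT* to 0.865 in *TDRD9* and reached the limit of 0.6 used for the high class. In that class, 17.1% of the protein-coding pairs had a peak in the canonical window and 2.54% had one over the TSS. Genes of the intermediate class, with a ratio from 0.3 to 0.6, had 20.8% and 8.99%. The 2 lines with most germline genes also had peaks at the largest share of other CpG-rich promoters. In IMR-32, 23.2% of the high-CpG protein-coding genes had a peak in the canonical window, and in SH-SY5Y 18.8%. The lowest share, 14.6%, was found in SJNB-1, with 7 germline genes.

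**Figure D2:**
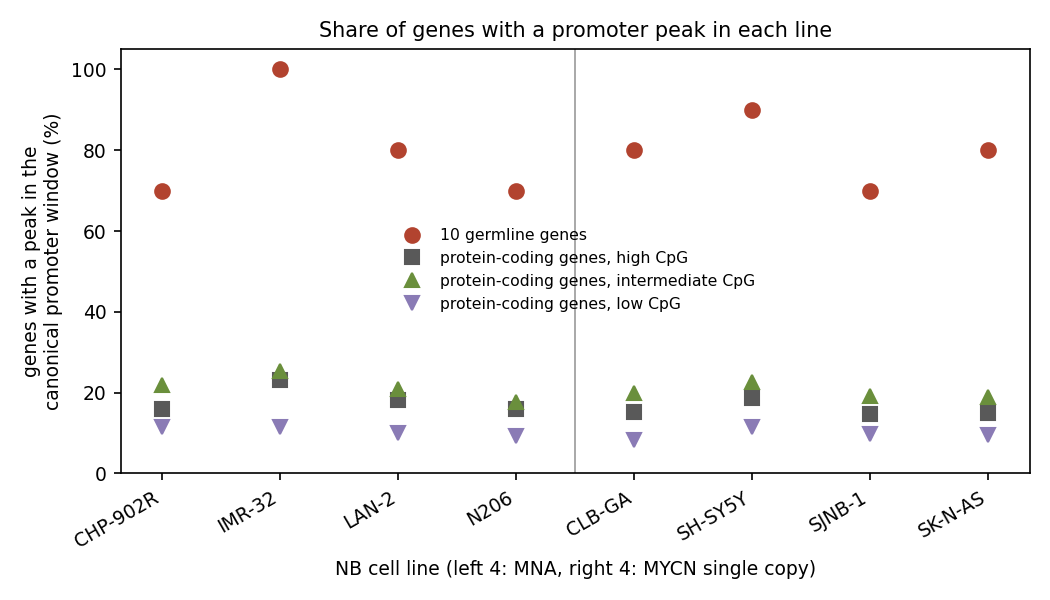
Share of genes (%) with a peak in the canonical promoter window in each NB line, for the 10 germline genes (circles) and for protein-coding genes of high, intermediate and low CpG content (squares and triangles). The germline genes lie between 70% and 100%, and the high-CpG protein-coding genes between 14.6% and 23.2%.

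Genes of the piRNA pathway are described first. *MAEL* (Maelstrom) encodes a protein that piRNA-guided silencing of transposons needs. The lowest rank that its promoter peak took in any list was above that of each other of the 10 genes. In every line 1 peak covered the canonical TSS on chromosome 1, with scores of 304 (LAN-2), 224 (CHP-902R), 166 (N206) and 140 (IMR-32) in the MNA lines and of 208 (SJNB-1), 207 (SH-SY5Y), 177 (CLB-GA) and 137 (SK-N-AS) in the single copy lines. These peaks scored higher than 95.9% (IMR-32) to 99.7% (LAN-2) of all peaks in their list. Their left edges lay 395 to 101 bp upstream of the TSS, and their right edges 317 to 747 bp downstream. The stretch shared by all 8 peaks, chr1:166958416-166958834, has 419 bp and 34 CpG sites, with 205 bp in exons of the canonical transcript, of which 132 bp are coding, and 113 bp in introns.

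*DDX4* (Vasa), on chromosome 5, encodes an RNA helicase that marks germ cells throughout the animal kingdom. A peak lay over its canonical TSS in every line but N206, whose only promoter peak lay 1513 to 1100 bp upstream with a score of 57.8. CHP-902R and CLB-GA had a peak at this upstream place as well, from 1508 to 1123 bp and from 1632 to 1083 bp upstream. The peaks over the TSS scored above 21.4% of the list in LAN-2 and above 96.8% in SH-SY5Y, the extremes of the 7 lines. The part common to the 7 peaks over the TSS, chr5:55033614-55033893, has 280 bp and 22 CpG sites, and 275 bp of it lie upstream of the TSS. LAN-2 and SH-SY5Y had a further peak near 27.6 kb downstream, at another TSS of the gene.

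*TDRD1* encodes a Tudor domain protein that binds PIWI proteins, and it is the gene whose peaks were either over the TSS or absent. CHP-902R, IMR-32, CLB-GA, SH-SY5Y and SK-N-AS each had 1 peak, all within 435 bp upstream and 328 bp downstream of the TSS. The score was 138 in CLB-GA, higher than 96.2% of its list, and 52.0 in SH-SY5Y, higher than 4.84%. LAN-2, N206 and SJNB-1 had no promoter peak, and their nearest peaks lay 10195, 13616 and 13643 bp from the TSS. The common stretch, chr10:115938899-115939225, has 327 bp and 21 CpG sites.

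*TDRD9* encodes a Tudor domain protein that is also a helicase of the piRNA pathway, and its start on chromosome 14 had the highest CpG density of the 10 genes, 9.89 per 100 bp. A promoter peak was called in every line but LAN-2, where the nearest peak lay 5930 bp downstream. The peak of CHP-902R was the widest of all peaks at the 10 genes, at 2104 bp, and held 138 CpG sites. In N206 the peak began 27 bp downstream of the TSS, and in SH-SY5Y it ended 93 bp upstream. No promoter peak of *TDRD9* reached a score of 100, and its highest was 94.0. The highest peak in the canonical window ranked above 7.65% of the list in SJNB-1 and above 80.2% in CHP-902R, the extremes of the 7 lines.

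*PIWIL1* encodes a PIWI protein, the partner of piRNAs. Around its canonical TSS on chromosome 12, peaks fell at 2 places. IMR-32, LAN-2, N206 and CLB-GA had a peak upstream of the TSS, within the stretch from 1395 to 423 bp upstream, and these peaks held 3.79 to 4.73 CpG sites per 100 bp. Peaks over the TSS were found in N206 and SJNB-1 and held 9.65 and 10.5 CpG sites per 100 bp. CHP-902R, SH-SY5Y and SK-N-AS had no promoter peak, and the nearest peaks lay 2757, 6172 and 36825 bp upstream. Further peaks, at other TSS of the gene, lay 2294 to 3003 bp and 28445 to 28781 bp downstream in CLB-GA and 5675 to 6174 bp downstream in SJNB-1. Of the 45 bp windows around this TSS, 86.9% occur once in GRCh37, the lowest share of the 10 genes.

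*STK31*, on chromosome 7, encodes a protein with a Tudor domain and a kinase-like domain that is made in the testis. A peak spanned its canonical TSS in all 8 lines, with scores of 171 (LAN-2), 133 (IMR-32), 127 (CHP-902R) and 91.8 (N206) in the MNA lines and of 180 (SH-SY5Y), 143 (CLB-GA), 82.5 (SJNB-1) and 79.2 (SK-N-AS) in the single copy lines. The scores of N206, SJNB-1 and SK-N-AS lay below 100 and those of the other lines above. The stretch shared by all lines, chr7:23749607-23750205, has 599 bp and 44 CpG sites, and it reaches from 231 bp upstream to 367 bp downstream. Peaks were also called 11675 to 13061 bp downstream, at further TSS of *STK31*, in all lines but CLB-GA. There SK-N-AS had a score of 160, which is higher than 98.7% of its list, while CHP-902R had 2 peaks, with scores of 53.3 and 54.2. The pseudogene *PCMTD1P3* starts 11563 bp downstream of the *STK31* TSS on the other strand, so this cluster cannot be assigned to *STK31* alone.

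**Figure D3:**
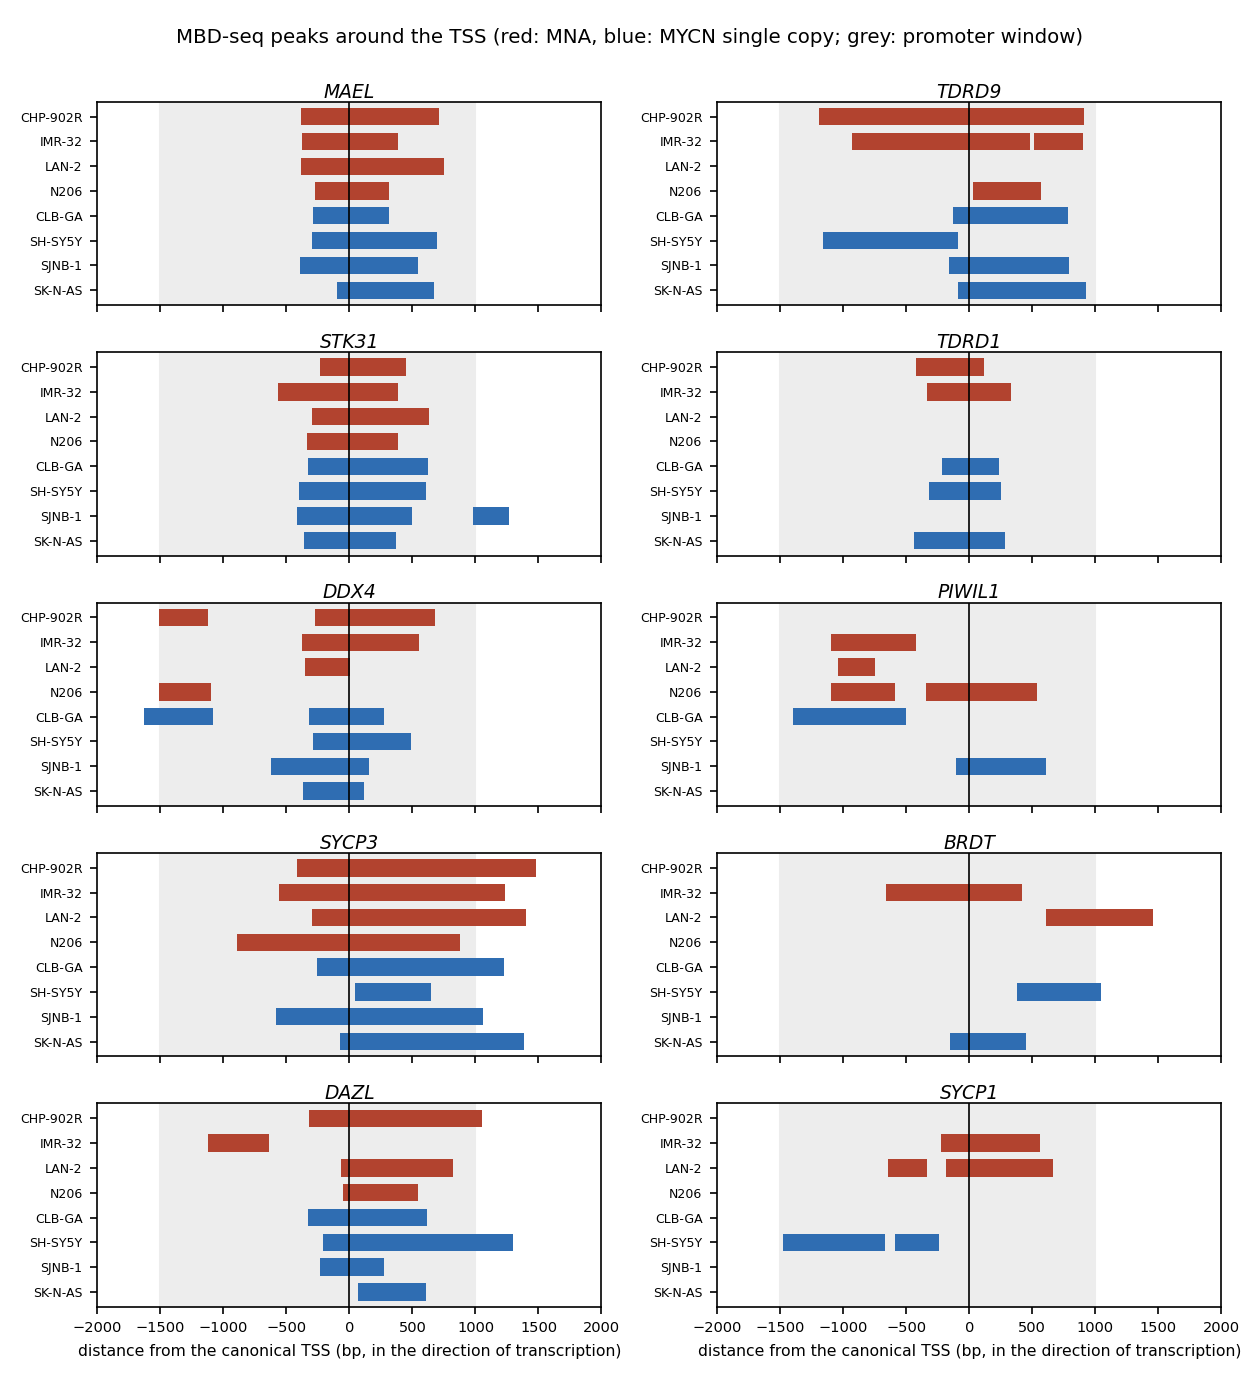
Peaks within 2000 bp of the canonical TSS of each germline gene, 1 row per NB line (red MNA, blue *MYCN* single copy), with distance in the direction of transcription on the x axis (bp) and the promoter window in grey. The bars of *MAEL*, *TDRD1* and *STK31* cross the TSS, apart from a second bar of *STK31* in SJNB-1, whereas those of *PIWIL1*, *BRDT* and *SYCP1* lie partly upstream or downstream of it.

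The genes of meiosis and of germ cell regulation follow. *SYCP3* encodes a component of the axial elements of the synaptonemal complex, along which meiotic chromosomes pair. Its peaks were wide. They measured 1898 bp (CHP-902R), 1796 bp (IMR-32), 1772 bp (N206) and 1706 bp (LAN-2) in the MNA lines and 1640 bp (SJNB-1), 1486 bp (CLB-GA), 1464 bp (SK-N-AS) and 602 bp (SH-SY5Y) in the single copy lines. SH-SY5Y stood apart: its peak began 45 bp downstream of the TSS and scored higher than 57.3% of its list, while the peaks of the other lines crossed the TSS and scored higher than 95.6% to 99.5%. The part common to these 7 peaks, chr12:102132362-102133318, has 957 bp and 64 CpG sites, with 78 bp upstream of the TSS, 112 bp in exons and 767 bp in introns. Of the 45 bp windows, 88.8% occur once in GRCh37.

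*SYCP1* encodes the transverse filaments that join the paired axes, and it had a promoter peak in fewer lines than any other of the 10 genes. The peak of IMR-32 crossed the TSS and, at a score of 164, exceeded 97.9% of the list. In LAN-2 the peak across the TSS scored 68.4 and another upstream of it 61.0. In SH-SY5Y, 2 peaks lay upstream, and the nearer one ended 243 bp before the TSS. In the other 5 lines the nearest peak was 30003 to 63871 bp away, so that these lines had no peak in the surroundings of the promoter either.

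*DAZL* encodes an RNA-binding protein that germ cells need to form and to enter meiosis. It had 1 peak in each line, with scores of 146 (CHP-902R), 87.4 (N206), 66.0 (IMR-32) and 62.5 (LAN-2) in the MNA lines and of 189 (SH-SY5Y), 140 (CLB-GA), 85.7 (SJNB-1) and 52.1 (SK-N-AS) in the single copy lines. The peak in IMR-32 lay 1119 to 640 bp upstream with 11 CpG sites, and that in SK-N-AS began 72 bp downstream. The peaks of the other 6 lines covered the TSS and shared chr3:16646659-16646978, which has 320 bp and 23 CpG sites and lies largely in an exon (221 bp). Within their lists the scores ran from above 7.97% of the peaks in SK-N-AS to above 99.1% in SH-SY5Y.

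*BRDT*, on chromosome 1, encodes a testis protein whose bromodomains bind acetylated histones. Peaks covered its TSS in IMR-32, with a score of 113, and in SK-N-AS, with a score of 53.7. In LAN-2 the peak reached from 612 to 1461 bp downstream, and in SH-SY5Y from 378 to 1048 bp downstream. CHP-902R, N206, CLB-GA and SJNB-1 had none, with the nearest peak 17441 to 77178 bp away.

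The rank of the highest promoter peak varied with the gene. In the canonical window, 29 of the 64 pairs had a peak that scored higher than 90% of the list. By line, 2 (N206, SK-N-AS) to 6 (CLB-GA) germline genes had such a peak, and of the protein-coding genes with a peak there, 14.0% (SK-N-AS) to 21.1% (LAN-2) did. The median over the germline genes with a peak lay above 59.9% of the list in SH-SY5Y and above 96.4% in CLB-GA, the extremes of the lines. The medians of the protein-coding genes ran from 54.1% to 61.1%. *MAEL* had a rank above 95% in each line and *TDRD9*, *PIWIL1* and *BRDT* in none, so that this spread was one between genes as well as between lines.

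Peak cover was concentrated at the TSS. In the 100 bp bins around the canonical TSS, averaged over genes and lines, the 10 genes reached 65.8% covered DNA in the bin centred 50 bp downstream. Within 500 bp of the TSS 50.8% of the DNA was covered, and from 3000 to 5000 bp away 0.246%. For all protein-coding genes these values were 3.34% and 3.50%. In the gene bodies outside the promoter windows, the median cover over the lines ran from 0% in *DAZL* and *MAEL* to 3.03% in *PIWIL1*. The same share was not computed for other genes, so these values have no background. Of the 87 peaks at the 10 genes, 64 reached upstream of the canonical TSS, 57 overlapped an exon of the canonical transcript and 32 overlapped its coding sequence.

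**Figure D4:**
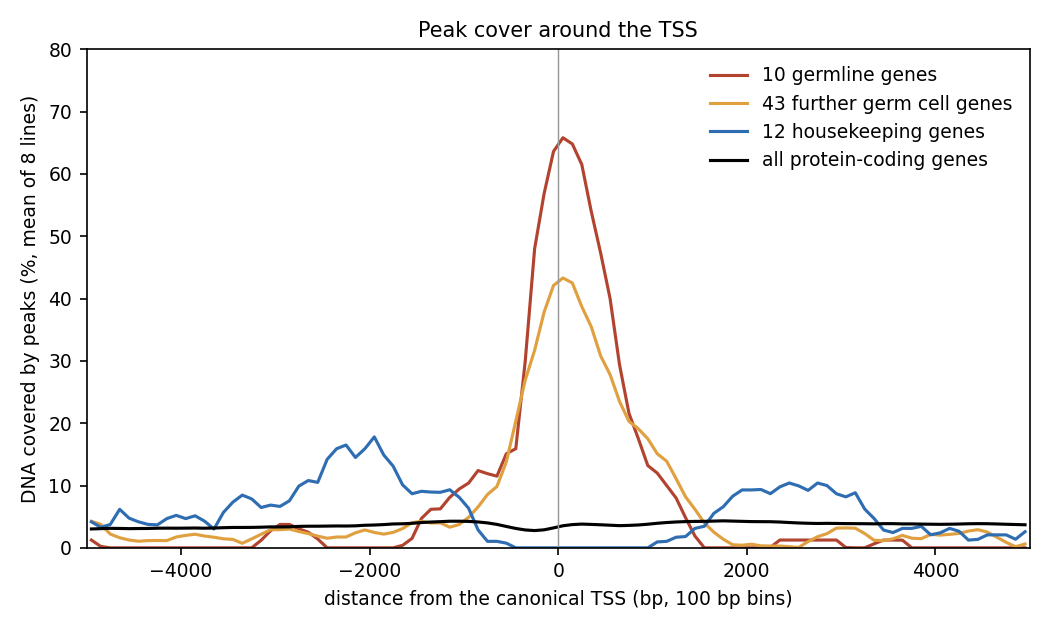
Share of DNA covered by peaks (%, mean over genes and the 8 lines) in 100 bp bins against distance from the canonical TSS (bp), for the 10 germline genes, 43 further germ cell genes, 12 housekeeping genes and all protein-coding genes. The germline genes rise to 65.8% and the further germ cell genes to 43.3% just downstream of the TSS, where the housekeeping genes lie at 0%.

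The presence of peaks at the germline genes did not separate the MNA from the *MYCN* single copy lines. The MNA lines had a promoter peak at 8 ± 1.41 of the 10 genes (SD, n = 4) and the single copy lines at 8 ± 0.816 (SD, n = 4). Over the canonical TSS the numbers were 6.5 ± 1.29 and 6.5 ± 1.00. The MNA lists were the longer ones, and a promoter peak was found at 38.6 ± 2.18% of protein-coding genes in them and at 35.3 ± 2.33% in the single copy lists. With each list held to its top 70816 peaks, the MNA lines had a mean of 0.5 germline genes more. For no gene did a peak mark every line of one group and no line of the other. Two-sided Fisher's exact tests gave p = 1 for each of the 10 genes. *DAZL*, *DDX4*, *MAEL*, *SYCP3* and *STK31*, with a peak in every line, could give no other p in this test. The same holds for *TDRD9*, with a peak in every line but LAN-2, so for these genes the test cannot show a difference. *TDRD1* and *PIWIL1*, with a peak in 5 lines each, and *SYCP1*, in 3, could not reach p under 0.05 however these lines were divided. Only for *BRDT*, with a peak in 4 lines, could the test have done so. Across all 64449 genes, 0% passed this test after Benjamini-Hochberg adjustment, and 127 genes (0.197%) had an unadjusted p under 0.05. The smallest p that 4 lines against 4 allow is 0.0286, which cannot pass an adjustment over so many genes, so the tests can show only how the germline genes lie among them.

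The number of bp covered by peaks in the promoter windows overlapped between the groups for all 10 genes. The lowest p was that of *SYCP3*, with 1539 ± 188 bp covered in the MNA lines and 1156 ± 424 bp in the single copy lines (SD, n = 4 each, two-sided exact permutation test, p = 0.143, adjusted p = 1). In the MNA lines the covered length was 1772 bp (N206), 1595 bp (IMR-32), 1452 bp (CHP-902R) and 1337 bp (LAN-2). In the single copy lines it was 1617 bp (SJNB-1), 1292 bp (CLB-GA), 1115 bp (SK-N-AS) and 602 bp (SH-SY5Y). SJNB-1 thus lay within the range of the MNA lines and was the only single copy line to do so. Leaving it out therefore separates the groups, and the exact permutation test then gave its smallest p, 0.0286 (adjusted p = 1). This value follows from the line left out and is no evidence of a difference. Without SJNB-1, 438 of the 64449 genes had an unadjusted p under 0.05 in this test. For the other 9 genes p ran from 0.657 (*TDRD1*) to 0.857 (*STK31*) in the same exact permutation test, and 5 of them had the larger mean in the single copy lines. Across all genes 0% passed after adjustment, and 436 (0.677%) had an unadjusted p under 0.05. Without CHP-902R, the difference in covered length (MNA minus single copy) turned from 64.8 to -1.58 bp for *MAEL*, from 102 to -190 bp for *TDRD9* and from -81.2 to 115 bp for *PIWIL1*.

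These lengths were cut at the edges of the windows. The whole widths of the *SYCP3* peaks, compared after their values were seen, did not overlap between the groups: they ran from 1706 to 1898 bp in the MNA lines (1793 ± 79.7 bp, SD, n = 4) and from 602 to 1640 bp in the single copy lines (1298 ± 471 bp, SD, n = 4; two-sided exact permutation test, p = 0.0286, adjusted p = 1). Of the 1759 genes with a promoter peak in all 8 lines, 3.58% had whole widths that did not overlap between the groups. The widths overlapped for the other 9 germline genes. Every MNA list was also longer than every single copy list, and the part of list length in these widths was not tested.

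Around the amplified gene itself, peak cover did not overlap between the groups. Within 1 Mb on either side of *MYCN*, peaks covered 8.68% to 19.8% of the DNA in the MNA lines and 1.87% to 4.76% in the single copy lines. Every MNA list was also longer than every single copy list, and how often other stretches of this length separate the groups was not computed. None of the 10 genes lies on chromosome 2, where *MYCN* is, and the part of copy number in their peaks was not tested.

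The other genes of the same processes had promoter peaks in 65.4% of their pairs with a line. Of 13 further piRNA pathway genes, 11 had a promoter peak in 1 line or more, and peaks lay over the TSS in 49.0% of their pairs with a line. A promoter peak in 1 line or more was found at 73.9% of protein-coding genes, 81.2% of those of high CpG content and all 12 housekeeping genes. Such a count is therefore not particular to germ cell genes. Over the TSS, 3.38% of the protein-coding pairs had a peak. *PIWIL2* and *TDRD6* had a canonical window peak in all 8 lines, and *PIWIL2*, which encodes another PIWI protein, had it over the TSS in each. *PIWIL4* had a promoter peak in each of the 8 lines, in 5 of them at the canonical TSS. *PIWIL3* and *PLD6*, the latter encoding a mitochondrial enzyme of piRNA formation, had none in any line. *PLD6* has 10.6 CpG sites per 100 bp, more than any of the 10 genes.

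Of 20 further meiosis genes, 19 had a promoter peak in 1 line or more, as had 73.9% of protein-coding genes. A peak lay over the TSS in 41.9% of their pairs. *SYCP2*, the partner of *SYCP3* in the axial elements, and *SYCE1*, of the central element, had a promoter peak in all 8 lines and one over the TSS in 7. *SMC1B*, a cohesin subunit of meiosis, and *SPO11*, the enzyme that makes the meiotic DNA breaks, also had a peak in all 8 lines, over the TSS in 6 and 8 of them. *SYCE3*, another central element gene, had none. Genes of 1 structure thus ranged from a peak in every line to none: *SYCP1* had 3 lines, *SYCP2* and *SYCP3* 8, and *SYCE3* 0.

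Of 10 further germ cell regulators, 9 had a promoter peak in 1 line or more, as had 73.9% of protein-coding genes. *BOLL*, a relative of *DAZL*, and *SLC25A31*, a testis form of the mitochondrial ADP/ATP carrier, had a peak over the TSS in all 8 lines, and *DPPA2* had no promoter peak in any. Only 3 of these 10 genes are of the high CpG class. None of the 43 further genes had the same set of lines as *SYCP1*, *TDRD1*, *TDRD9*, *PIWIL1* or *BRDT*, the germline genes with a peak in some of the lines. These sets were shared with 0.149% (*BRDT*) to 0.947% (*TDRD9*) of all protein-coding genes.

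Housekeeping genes and genes of the NB lineage served as a background measured in the same way. The 12 housekeeping genes had a promoter peak at some TSS in 53.1% of pairs, but in 12.5% in the canonical window and in 0 of 96 pairs over the canonical TSS. Among 10 genes of the NB lineage, such as *HAND2* and *ISL1*, which encode transcription factors of sympathetic neurons, 0 of 80 pairs had a peak over the TSS. *HAND2*, *ISL1* and *DBH*, the last encoding the enzyme that makes noradrenaline, had no promoter peak in any line. The 43 further germ cell genes had 147 of 344 pairs (42.7%) over the TSS.

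**Figure D5:**
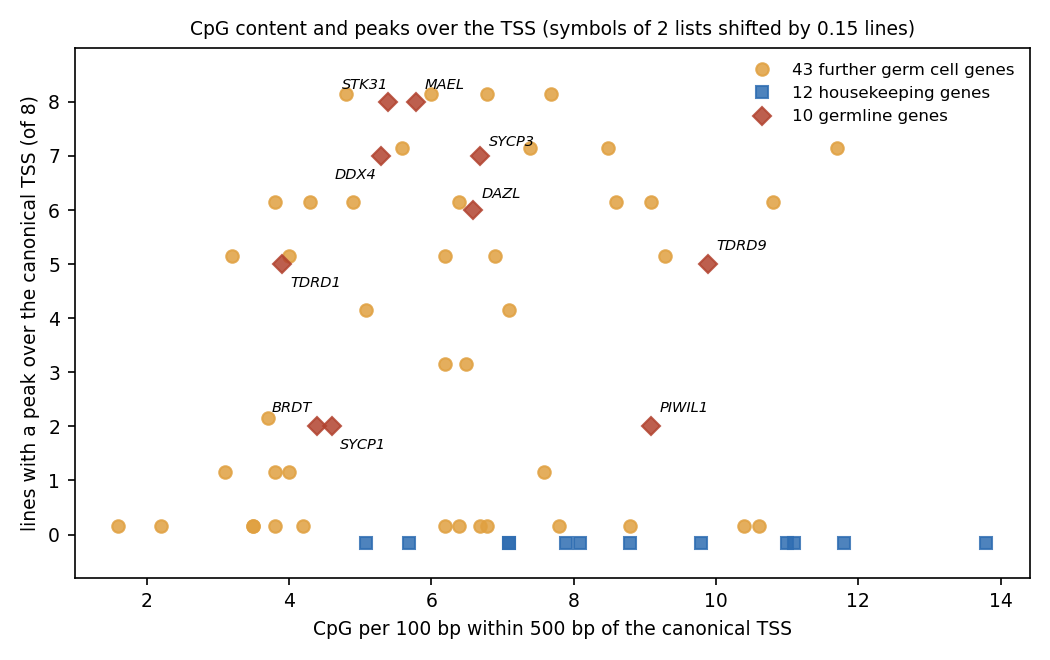
Number of NB lines (of 8) with a peak over the canonical TSS against CpG sites per 100 bp within 500 bp of it, for the 10 germline genes (named diamonds), 43 further germ cell genes (circles) and 12 housekeeping genes (squares). At similar CpG density the germ cell genes range from 0 to 8 lines, and the housekeeping genes all lie at 0.

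Among the 10 genes, those with a promoter peak in all 8 lines were of middle CpG density, from 5.29 (*DDX4*) to 6.69 (*SYCP3*) CpG sites per 100 bp. *TDRD1*, *BRDT* and *SYCP1*, with 3.90 to 4.60, had peaks in 3 to 5 lines. *PIWIL1* and *TDRD9*, at the other end with 9.09 and 9.89, had peaks in 5 and 7 lines. This order rests on 10 genes and is a description only.

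A pair of short motifs was searched on both strands from 250 bp upstream to 50 bp downstream of the canonical TSS: CACGTG, the E-box core bound by MYC and MAX family proteins, and TTCCCGC, an E2F-like sequence. CACGTG was found in 5 of the 10 genes, at 22 bp upstream in *DDX4*, 211 in *MAEL*, 131 and 111 in *TDRD1*, 78 in *BRDT* and 67 in *STK31*, and again 29 bp downstream in *STK31*. It occurred in 10 of the 43 further germ cell genes, in 8.74% of protein-coding genes and in 10.4% of those of high CpG content. TTCCCGC was found in *SYCP1* and *TDRD9*, in 13 of the 43 further genes and in 8.56% of protein-coding genes. Genes with CACGTG had a peak over the TSS in 2 lines (*BRDT*), 5 (*TDRD1*), 7 (*DDX4*) or 8 (*MAEL* and *STK31*). A match describes the letters in the window and is not evidence of binding.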

How the data were processed

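The 8 NB cell lines were profiled by MBD-seq. Bowtie 0.12.7 (GRCh37, paired ends) and MACS were run by the authors for each line on its own. The deposited lists hold peak positions and a score of 50 or more, taken here, from that lowest value, as the p-value-based score of MACS. An input control and the options of the peak calling are not given in the sources used here. Groups follow the *MYCN* labels. Promoter windows, cover and CpG content were computed with Python 3.11.15, numpy 2.4.6, scipy 1.17.1, pandas 2.3.3 and numba 0.67.0, with TSS of GENCODE release 44 in GRCh37 coordinates. Groups were compared over all 64449 genes with two-sided Fisher's exact tests of peak presence and exact permutation tests of covered bp, adjusted after Benjamini-Hochberg. Both were run on simulated data, in which planted genes had a peak in every MNA line and in no single copy line. Of these, 200 of 200 reached the smallest possible p, which such a split fixes, so partial differences were not tested. After adjustment, 0 of 64449 genes had a Fisher p under 0.05 there, so no planted gene passed the adjusted Fisher test. Named are the 10 genes and, from each other list, up to 5 genes with a promoter peak in all 8 lines and up to 5 with none, alphabetically. The genes and lists were chosen with earlier results of these data known. Alternatives were scores of 100 or more, the top 70816 peaks of each list, peak midpoints, at least 100 bp covered, other windows, the canonical TSS alone and each line left out in turn. Whole peak widths were added after seeing the data. A gene of the NB lineage list is not reported here by name.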

Additional observations from a re-analysis of the deposited data

Results flagged for a closer look

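In 2 of 30 sets of 4 lines examined, 1 line lay far from the other lines of its *MYCN* group by Dixon's ratio, the gap to the nearest line divided by the whole range, past its 95% critical value for 4 samples. Both were SH-SY5Y among the single copy lines. In both the ratio of 1 arises because the other 3 lines had equal values, so the chance rate of about 1 in 20 sets that holds for untied values does not apply.

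SH-SY5Y had a peak over the canonical TSS at 5 of the 10 germline genes and the other single copy lines at 7 each (ratio 1). It nevertheless had a promoter peak at 9 genes, the most of its group. The 4 genes with a peak beside the TSS were *SYCP3*, where it began 45 bp downstream, *TDRD9*, where it ended 93 bp upstream, *SYCP1*, where it ended 243 bp upstream, and *BRDT*, where it began 378 bp downstream. SH-SY5Y was also the only single copy line with promoter cover at *SYCP1*, 1164 bp against 0 bp in the other lines of the group (ratio 1).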

How the results depend on the processing

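No paired analysis was possible because each sample is a different line and the labels number no replicates. Whole peak widths were an alternative chosen after seeing the data. No germline gene passed an adjusted test of the *MYCN* groups under any alternative run. Keeping scores of 100 or more lowered the mean number of germline genes with a promoter peak per line from 8 to 4, the pairs with a promoter peak to 40% and those with a peak over the TSS to 37.5%, against 9.14% and 1.34% of the protein-coding pairs. *MAEL* then kept 8 lines, *SYCP3* 7, *STK31* 7 (5 at its canonical TSS), *DDX4* 4, *DAZL* 3, *SYCP1*, *TDRD1* and *BRDT* 1 each, and *TDRD9* and *PIWIL1* 0. When single lines were left out, the mean per line ran from 7.71 to 8.14 genes, its difference between the groups from -0.667 to 0.333, the pairs from 77.1% to 81.4% and those over the TSS from 62.9% to 67.1%. Differences in covered bp between the groups (MNA minus single copy) changed sign in several alternatives. With the window ending 500 bp downstream that of *DAZL* was 0.25 bp, within 500 bp of the TSS that of *TDRD9* was -114 bp, and with the canonical TSS alone those of *DAZL* and *PIWIL1* were 21.2 and 187 bp. With a line left out, the difference ran from -222 to 170 bp for *DAZL*, -238 to 70.7 bp for *DDX4*, -13.2 to 165 bp for *MAEL*, -28.3 to 489 bp for *SYCP1*, -257 to 517 bp for *TDRD9*, -348 to 266 bp for *PIWIL1*, -107 to 254 bp for *BRDT* and -296 to 141 bp for *STK31*. The cause of these shifts was not tested. Unknown depth limits what a missing peak shows.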
